A study of Homo sapiens with 4 samples.

Results

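Long noncoding RNA (lncRNA) genes known by name, 8 in all, were followed through a polysome profiling experiment: MALAT1, NEAT1, NORAD, TUG1, CYTOR, MIR22HG, HCG18 and PVT1. They are 8 of 28198 genes in the table, taken by name as well-known lncRNAs, by a rule that sets no limit on their values but was written with earlier results of these data known. Each was found under its symbol. All 8 are marked as lncRNAs there, among 5137 such genes. The cells were MDA-MB-231, a human breast cancer line that was depleted of METTL3 and then reconstituted, by lentiviral expression, with METTL3-WT or with METTL3-K177Q. METTL3 is the catalytic subunit of the m6A RNA methyltransferase, and in K177Q a glutamine in place of a lysine mimics acetylation of that residue. All cells of both genotypes were treated with 100 µg/mL cycloheximide, which holds ribosomes on the RNA, for 5 min before lysis. Lysates were separated on 10 to 50% sucrose gradients. The gradient was pooled into a sub-polysome fraction (where ribosomal subunits and single ribosomes sediment) and a polysome fraction (where RNA carrying several ribosomes sediments). The samples analysed here are WT sub-polysome, WT polysome, K177Q sub-polysome and K177Q polysome, 1 library each and all labelled replicate 2, so no value has a replicate error and no difference was tested.

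Messenger RNAs that are being translated sediment with polysomes, whereas RNA that carries no ribosome tends to stay in the light fractions. Sedimentation alone does not show that an RNA carries ribosomes, and no control that releases ribosomes is described for these libraries. MALAT1 and NEAT1 are known as nuclear-retained RNAs: MALAT1 lies in nuclear speckles, where splicing factors are stored, and NEAT1 is the scaffold of paraspeckles. NORAD and CYTOR are known as cytoplasmic RNAs. NORAD binds Pumilio proteins such as PUM2, which repress mRNAs through short sequence elements, and CYTOR (also called LINC00152) is an abundant RNA of tumour cells. TUG1 has been described in both compartments, MIR22HG is the host transcript of the microRNA miR-22, HCG18 lies in the major histocompatibility complex, and PVT1 is the neighbour of the MYC gene.

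The sequences below show what sets the 2 nuclear-retained RNAs and NORAD apart as molecules, why CYTOR is hard to measure, and what MIR22HG encodes. All positions are on hg38, and genes and transcripts are those of GENCODE 44. MALAT1 (chromosome 11, 65497640 to 65508073, plus strand, canonical transcript of 10434 bases in 1 exon) and NEAT1 (chromosome 11, 65422774 to 65445540, plus strand, canonical transcript of 22743 bases in 1 exon) are neighbours. The 3′ ends of MALAT1 and of the long form of NEAT1 are known to be made by cleavage next to a tRNA-like structure and to end in a triple helix of U-rich and A-rich stretches instead of a poly(A) tail. The window around the longest run of A in MALAT1, which is 13 bases long, and the last 100 bases of the NEAT1 transcript are given with the stretches that both windows hold in capitals, 1 of 16 bases and 1 of 11 bases.
MALAT1, chr11:65506018-65506150, plus strand: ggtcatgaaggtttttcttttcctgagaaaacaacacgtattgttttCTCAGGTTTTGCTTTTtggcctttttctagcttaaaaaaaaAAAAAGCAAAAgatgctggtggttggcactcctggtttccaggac
NEAT1, chr11:65445441-65445540, plus strand: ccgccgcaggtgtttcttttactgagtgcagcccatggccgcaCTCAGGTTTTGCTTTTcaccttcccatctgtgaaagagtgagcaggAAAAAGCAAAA

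NORAD (chromosome 20, 36045618 to 36051018, minus strand) is a single exon of 5401 bases. Its transcript held 15 copies of TGTANATA, the sequence that Pumilio proteins recognise, with N for any base and only the transcript's own strand searched. In 3 places the copies stood in pairs whose starts were 9 bases apart, and these pairs are given with the 8-base elements in capitals.
NORAD pair 1, chr20:36049488-36049534, minus strand: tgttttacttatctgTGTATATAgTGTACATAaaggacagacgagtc
NORAD pair 2, chr20:36048291-36048337, minus strand: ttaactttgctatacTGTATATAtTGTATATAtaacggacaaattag
NORAD pair 3, chr20:36047655-36047701, minus strand: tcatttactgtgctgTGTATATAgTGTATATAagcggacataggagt
Of the 10673 expressed genes with a matched transcript, 30.1% held at least 1 copy, and only FLRT2, LNPEP and NORAD held 15 or more. Among 934 transcripts within 10% of the length of NORAD, 48.5% held a copy, the 95th percentile was 3 copies, and NORAD was the only one with 15. NEAT1 held 6 copies and TUG1 held 2, while these letters were not found in the canonical transcripts of MALAT1, CYTOR, MIR22HG, HCG18 and PVT1.

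CYTOR (chromosome 2, 87454781 to 87636740, plus strand, canonical transcript of 1020 bases in 5 exons) has a copy, MIR4435-2HG (chromosome 2, 111006015 to 111523376, minus strand, 858 bases), near-identical where the canonical transcripts align. The canonical transcripts aligned over 409 bases in 2 blocks, 408 of them identical (99.8%), which is 47.6% of MIR4435-2HG. The 60 bases below are the same in both, so a fragment from them cannot be placed.
CYTOR, chr2:87583258-87583317, plus strand: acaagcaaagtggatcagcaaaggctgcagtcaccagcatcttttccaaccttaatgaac
MIR4435-2HG, chr2:111367516-111367575, minus strand: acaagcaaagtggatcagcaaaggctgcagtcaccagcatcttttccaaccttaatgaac

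MIR22HG (chromosome 17, 1711447 to 1717174, minus strand, canonical transcript of 2876 bases in 4 exons) carries both arms of miR-22 in exon 4. Their mature sequences are those of RefSeq on GRCh38.p14, with the seed (bases 2 to 8), through which a microRNA pairs with its targets, in capitals.
hsa-miR-22-3p, chr17:1713914-1713935, minus strand: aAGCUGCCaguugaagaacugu
hsa-miR-22-5p, chr17:1713952-1713973, minus strand: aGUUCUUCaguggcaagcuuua

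The remaining members are TUG1 (chromosome 22, 30969245 to 30979395, plus strand, 7474 bases in 3 exons), HCG18 (chromosome 6, 30286690 to 30327382, minus strand, 3040 bases in 3 exons) and PVT1 (chromosome 8, 127794526 to 128187101, plus strand, 2444 bases in 11 exons). GENCODE types TUG1 as protein-coding, in contrast to its lncRNA mark in the table. The longest open reading frame in the canonical transcripts ran from 65 codons in HCG18 to 137 in NEAT1, with 135 in TUG1. The number of annotated transcripts ran from 1 for NORAD to 190 for PVT1, and the table gives 1 value per gene, so isoforms such as the short and the long form of NEAT1 are not told apart. MALAT1, TUG1, CYTOR, MIR22HG, HCG18 and PVT1 overlap annotated genes on the other strand, among them TALAM1 (at MALAT1), LINC01943 (CYTOR), WDR81 (MIR22HG), TRIM39 (HCG18) and LINC02912 (PVT1). The library kit keeps the strand, but the strand setting of the counting is not given in the sources used here, and the values of these 6 genes are uncertain to that extent. NORAD overlaps no annotated gene.

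Levels are in FPKM, fragments per kilobase of transcript relative to all mapped fragments of the library, as the authors gave them, a scale on which genes can be compared per length. FPKM summed to between 767949 and 1037594 per library, and between 15773 and 16193 genes were above 0. The depth is known only approximately, at 24800000 to 26200000 fragments per library, taking the lowest cluster of values as 1 fragment. The standard errors given below rest on that approximation and on GENCODE 44 lengths, and cover counting error only. Transcripts of lncRNAs took 1.31% of all FPKM in the WT sub-polysome library and 0.350% in the WT polysome library, against 1.33% and 0.299% in K177Q cells. The targeted gene METTL3 stood at 9.39 FPKM (WT sub-polysome), 38.7 (WT polysome), 5.07 (K177Q sub-polysome) and 29.5 (K177Q polysome), values that do not separate the reconstituted from any remaining endogenous transcript. The mesenchymal markers of this line were high, with VIM between 676.7 and 1543 FPKM and CD44, CAV1, AXL and MSN between 88.6 and 281.9 FPKM, while the oestrogen and progesterone receptor genes ESR1 and PGR reached at most 0.0119 FPKM and CDH1 at most 0.632 FPKM. Of the other epithelial markers examined, EPCAM had 6.20 to 9.91 FPKM, GATA3 2.83 to 4.95 FPKM and KRT19 547.8 to 1415 FPKM. A bulk library does not tell a transcript held by fewer cells from less of it in each cell.

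CYTOR was by far the most abundant of the 8, and it ranked 1 among the 405 lncRNAs whose mean over the 4 libraries was 1 FPKM or more (expressed lncRNAs below). The order by mean level was CYTOR (840 FPKM), NORAD (21.1), NEAT1 (9.16), TUG1 (5.05), HCG18 (3.32), PVT1 (2.71), MIR22HG (2.28) and MALAT1 (1.23). CYTOR was above NORAD, and NORAD above NEAT1, in 4 of 4 libraries. Every further neighbour in this order held its place in 3 of 4 libraries, and the mean of HCG18 was 1.22 times that of PVT1, which was 1.19 times that of MIR22HG. MALAT1, a highly abundant nuclear RNA in most human cells, ranked only 354 of the 405 in these poly(A)-selected libraries.

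**Figure D1:**
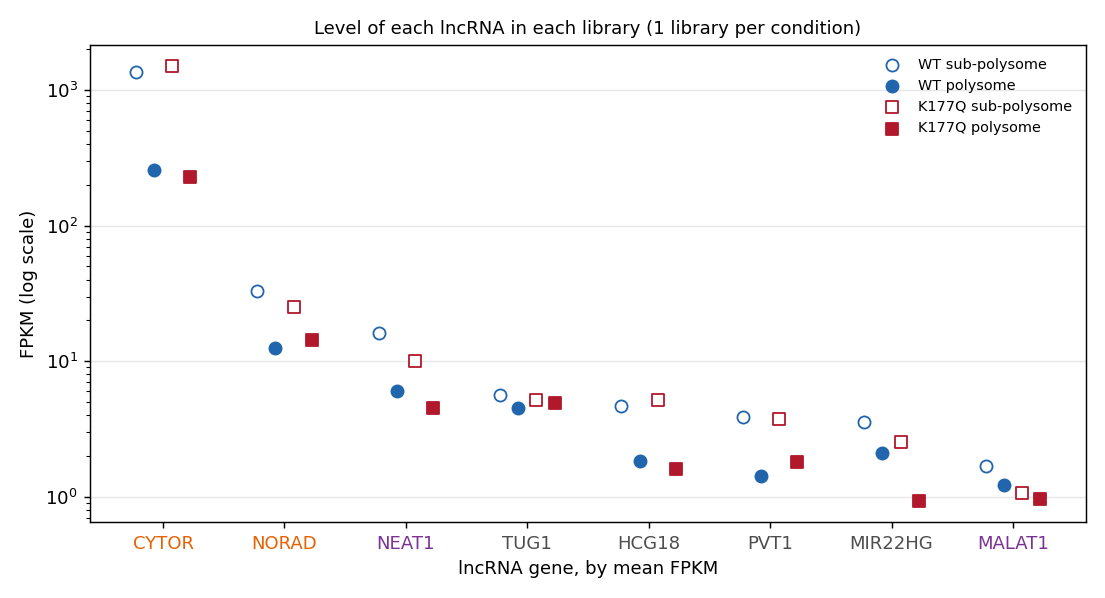
FPKM of each lncRNA (log axis) in the 4 libraries, with open symbols for sub-polysome, filled symbols for polysome, circles for METTL3-WT and squares for METTL3-K177Q. Gene names are purple for nuclear-retained, orange for cytoplasmic and grey for the others; each open symbol stands above the filled one of the same genotype, with the widest gap at CYTOR (1372 against 258 FPKM in WT) and nearly none at TUG1 and MALAT1 in K177Q.

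Which of these RNAs sediment with polysomes was asked of the WT cells first. The measure was the log2 ratio of polysome to sub-polysome FPKM, with 0.1 added to each. FPKM is relative to each library, so 0 means equal FPKM and not equal amounts of RNA in the 2 fractions. All 8 had lower polysome than sub-polysome FPKM, and 6 of them were at least 1.5-fold lower, a threshold the study also uses. Of all 10905 expressed genes (mean of 1 FPKM or more), 19.1% were that far lower, whereas among the 405 lncRNAs the share was 83.7%, so that 6 of 8 is close to what lncRNAs as a class show. The median ratio of the 8 was −1.35, beside −1.48 over lncRNAs, 0.18 over 10383 mRNAs and 0.14 over all genes. In K177Q cells the 8 again lay below 0, though MALAT1 and TUG1 only just, and those 2 lay above 0 (0.28 and 0.37) once each library was rescaled to the same total. In that genotype 6 of 8 were at least 1.5-fold lower, where the share was 21.3% over all genes and 88.4% over lncRNAs. The median of the members was −1.07 in K177Q cells, and that of lncRNAs was −1.88.

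MALAT1 had 1.69 FPKM in the WT sub-polysome library, 1.22 in the WT polysome library, 1.06 in the K177Q sub-polysome library and 0.968 in the K177Q polysome library. Its 4 values thus lay close together, with the WT sub-polysome library highest. The log2 ratio was −0.44 (counting SE 0.10) in WT and −0.11 (0.13) in K177Q cells, so in K177Q the fractions differed by less than the counting error. In WT this ratio stood at the 87.9th percentile of lncRNAs and at the 21.2nd percentile of mRNAs, well inside the range of mRNAs. These values rest on about 250 to 460 fragments.

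NEAT1 had 16.0 and 5.98 FPKM in the WT sub-polysome and polysome libraries, and 10.1 and 4.53 FPKM in those of K177Q cells. Both sub-polysome values were above both polysome values. The sub-polysome level was 2.66-fold the polysome level in WT and 2.20-fold in K177Q cells, a log2 ratio of −1.41 (counting SE 0.028) and −1.14 (0.034). Every counting SE given for NEAT1 takes the transcript of 22743 bases as its length. If the signal came mainly from the short form, these errors are too small. NEAT1 therefore sat in the middle of the lncRNAs, at their 52.6th percentile in WT, and at the 3.15th percentile of mRNAs. Although both RNAs are retained in the nucleus, NEAT1 and MALAT1 differed by about 1 log2 unit in either genotype.

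NORAD, the only member made of a single annotated transcript, had 32.7 FPKM in the WT sub-polysome library and 12.4 in the WT polysome library, against 25.2 and 14.2 in K177Q cells. The fractions did not overlap, but they lay nearer to each other in K177Q than in WT cells. Its log2 ratio was −1.39 (counting SE 0.040) in WT, at the 54.6th percentile of lncRNAs, and −0.82 (0.041) in K177Q cells, at the 82.2nd. The sub-polysome level was 2.62-fold the polysome level in WT and 1.77-fold in K177Q cells.

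In WT cells CYTOR reached 1372 FPKM below the polysomes and 258 FPKM among them, and in K177Q cells 1500 and 229.6 FPKM. It made up between 9.0% and 11.6% of all lncRNA FPKM in each library. The sub-polysome level was 5.32-fold the polysome level in WT and 6.53-fold in K177Q cells, the widest gap among the 8, with log2 ratios of −2.41 (counting SE 0.019) and −2.71 (0.020). Fewer than 1% of mRNAs had a ratio as low, since CYTOR stood at their 0.366th percentile in WT and at the 0.520th in K177Q cells. Its copy MIR4435-2HG was listed at 316.7, 54.7, 353.9 and 41.0 FPKM in the same order of libraries, with ratios of −2.53 and −3.11. How fragments were divided between the copies is not known, but their sum (1688, 312.7, 1854 and 270.6 FPKM) gave −2.43 in WT and −2.78 in K177Q cells, close to the ratios of CYTOR alone.

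TUG1 was, beside MALAT1, a member with nearly equal FPKM in the 2 fractions. Its levels were 5.67 FPKM (WT sub-polysome), 4.52 (WT polysome), 5.12 (K177Q sub-polysome) and 4.91 (K177Q polysome). The log2 ratio was −0.32 (counting SE 0.065) in WT and −0.06 (0.067) in K177Q cells, at the 89.6th and 93.1st percentiles of lncRNAs and the 25.4th and 37.6th of mRNAs. TUG1 and MALAT1 were the members that did not reach 1.5-fold in either genotype.

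MIR22HG, the miR-22 host, had 3.54 and 2.11 FPKM in the WT fractions, and 2.53 and 0.936 FPKM in those of K177Q cells. The K177Q polysome library was the lowest of the 4, and rests on about 67 fragments. Its ratio was −0.72 (counting SE 0.14) in WT and −1.35 (0.21) in K177Q cells. HCG18 was listed at 4.67 FPKM (WT sub-polysome), 1.82 (WT polysome), 5.18 (K177Q sub-polysome) and 1.61 (K177Q polysome), with ratios of −1.31 (0.14) and −1.63 (0.15). Both of its sub-polysome values were above both polysome values. The same held for PVT1, with 3.88 and 1.41 FPKM in WT and 3.73 and 1.81 FPKM in K177Q cells, and ratios of −1.40 (0.18) and −1.0 (0.17).

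The nuclear-retained pair did not have the lower mean polysome to sub-polysome ratio. The mean log2 ratio of MALAT1 and NEAT1 was −0.92 in WT cells, against −1.90 for NORAD and CYTOR, a difference of 0.98 towards the nuclear-retained pair. In K177Q cells the means were −0.63 and −1.77, a difference of 1.14. With 2 genes in each group and 1 library per condition there is no test of this difference, and the groups did not separate: in WT cells, NEAT1 (−1.41) and NORAD (−1.39) were alike within counting error, and in K177Q cells NORAD (−0.82) lay above NEAT1 (−1.14). The difference thus came from the outer genes, MALAT1 near 0 and CYTOR at the far low end. Without CYTOR it was 0.47 in WT and 0.20 in K177Q cells, and without MALAT1 0.49 and 0.63. How much nuclear RNA the lysates held was not measured.

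How far the polysome to sub-polysome ratio differed between the genotypes was asked next, as the K177Q log2 ratio minus the WT log2 ratio. It was above 0 for NORAD (0.57, counting SE 0.058), PVT1 (0.39, 0.24), MALAT1 (0.32, 0.16), NEAT1 (0.27, 0.044) and TUG1 (0.26, 0.093), and below 0 for CYTOR (−0.30, 0.028), HCG18 (−0.32, 0.21) and MIR22HG (−0.62, 0.25). After rescaling to the same total CYTOR was at 0.0015, and this rescaling moved the median of all genes from −0.01 to 0.29, so directions of values this small follow the scale. MIR22HG was the 1 member at least 1.5-fold lower, where 7.03% of all genes and 38.8% of lncRNAs were. It fell short of 1.5-fold with 1 FPKM added in place of 0.1 (−0.32) and when libraries were rescaled to the same total (−0.35). No member was at least 1.5-fold higher, where 4.08% of all genes and 11.9% of lncRNAs were, and NORAD stood just under that threshold of 0.585. The median of the members was 0.26, that of lncRNAs −0.37 and that of all genes −0.01. Thus the 5 members above 0 lay between the 78.8th and 87.7th percentiles of lncRNAs, and NORAD was at the 95.9th percentile of mRNAs. CYTOR and HCG18 were ordinary for lncRNAs (52.6th and 51.9th percentiles). The counting error alone is 0.21 to 0.25 for MIR22HG, HCG18 and PVT1, which is a large part of their differences.

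The fractions were then compared between genotypes one by one, to see which of them carried each difference. In the sub-polysome fraction, both nuclear-retained RNAs were at least 1.5-fold lower in K177Q cells, NEAT1 by a log2 value of −0.66 (counting SE 0.024) and MALAT1 by −0.63 (0.11). No other member was as low on the deposited scale, where 2.94% of all genes and 7.9% of lncRNAs were. With 1 FPKM added in place of 0.1, MALAT1 was at −0.39 and no longer 1.5-fold lower, while NEAT1 stayed so at −0.62. Rescaled to the same total, MIR22HG was 1.5-fold lower too (−0.67), where 1098 of 11143 genes and 64 of 419 lncRNAs were. NEAT1 was at the 5.68th and MALAT1 at the 6.67th percentile of lncRNAs in this comparison, and at the 1.55th and 1.87th of mRNAs. Both were also lower in the polysome fraction, at −0.39 and −0.31, so the differences of their ratios (0.27 and 0.32) were smaller than their sub-polysome differences. The cytoplasmic RNAs showed no such shared pattern, with a sub-polysome value of −0.37 for NORAD and 0.13 for CYTOR, the latter −0.08 after rescaling to the same total. The mean of the nuclear-retained pair minus that of the cytoplasmic pair was −0.53 in the sub-polysome and −0.36 in the polysome fraction.

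In the polysome fraction, MIR22HG was the 1 member at least 1.5-fold lower in K177Q cells (−1.09, counting SE 0.21), where 3.13% of all genes and 25.9% of lncRNAs were. It was below 0 in the sub-polysome fraction as well (−0.47). NORAD (0.19), TUG1 (0.12) and PVT1 (0.34) were above 0 among polysomes and below 0 in the sub-polysome fraction, at −0.37, −0.14 and −0.06. CYTOR and HCG18 went the other way, both at −0.17 among polysomes, with sub-polysome values of 0.13 and 0.15 that turned to −0.08 and −0.06 after rescaling to the same total. The median of the members was −0.26 in the sub-polysome and −0.17 in the polysome fraction, beside 0.12 and −0.27 over lncRNAs.

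GGACT, one of the sequences at which the METTL3 complex methylates adenosine, was counted on the transcript's own strand in the canonical transcripts. PVT1 held 4 copies (1.64 per kilobase), MALAT1 17 (1.63), CYTOR 1 (0.98), TUG1 7 (0.937), NEAT1 19 (0.835), HCG18 2 (0.658), NORAD 2 (0.370) and MIR22HG 1 (0.348). The median over expressed genes was 0.931 per kilobase with quartiles of 0.546 and 1.41, so MALAT1 and PVT1 were above the upper quartile and NORAD and MIR22HG below the lower one. NORAD and MIR22HG, the members with the lowest density (2 and 1 copies), had differences of ratios between genotypes that went in opposite directions. These were 0.57 (counting SE 0.058) and −0.62 (0.25). PVT1 and MALAT1, the members with the highest density, were both above 0, at 0.39 (0.24) and 0.32 (0.16). Of the members between, TUG1 and NEAT1 were above 0, and CYTOR and HCG18 were below 0. A relation between density and that difference was not tested. Methylation itself was not measured in these libraries.

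The mRNAs of proteins that work with these lncRNAs were set beside mRNAs as a class, of which 59.7% had a polysome to sub-polysome ratio above 0 in WT cells. All 13 mRNAs of paraspeckle proteins, the partners of NEAT1, were expressed, and 9 of them were at least 1.5-fold higher in WT polysomes, with a median log2 ratio of 0.93, where 28.1% of all genes and 29.4% of mRNAs were that far higher. Among the more abundant, HNRNPK had a ratio of 1.28 in WT and 1.45 in K177Q cells, EWSR1 1.12 and 1.17, and NONO, a core paraspeckle protein, 0.39 and 0.60. Between genotypes, 0 of the 13 reached 1.5-fold in either fraction or in the ratio. NEAT1 itself, at −1.41, stood below the lowest of them (0.36).

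Of 5 mRNAs for nuclear speckle proteins, the compartment of MALAT1, 0 reached 1.5-fold in WT, and their median was 0.36. SRSF2 (0.29), SRSF1 (0.41) and SON (0.36), which encode splicing factors and the speckle scaffold, were above 0, and RNPS1 was at −0.04. SON, a core protein of the speckle, was the 1 member of that list past 1.5-fold between genotypes: its sub-polysome level was lower in K177Q cells (11.1 against 16.9 FPKM, log2 −0.61), its polysome level was nearly equal (22.0 against 21.8 FPKM), and the difference of its ratios was 0.62. Of the genes for proteins that bind MALAT1, HNRNPC had a WT ratio of 0.85, the m6A reader YTHDC1 0.14 and the methyltransferase METTL16, which binds the MALAT1 triple helix, 0.38.

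Among the partners of NORAD, PUM2 had the lowest ratio. It was listed at 13.1 and 7.35 FPKM in the WT fractions, a ratio of −0.83, and had a ratio of −0.45 in K177Q cells. KHDRBS1 (SAM68), an RNA-binding protein reported to help NORAD hold Pumilio, had 0.14 and 0.22, and RBMX, a nuclear RNA-binding protein, 0.92 and 0.86. PUM2 thus lay on the same side of 0 as NORAD in WT cells and, like it, differed towards polysomes in K177Q cells (0.37), but it did not reach 1.5-fold between genotypes.

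Further lncRNAs, listed beforehand as nuclear or cytoplasmic, were examined to place the pairs, and their location was not checked here. Of 6 further nuclear lncRNAs (KCNQ1OT1, MIAT, HOTAIR, MEG3, FIRRE and TALAM1), 0 had a mean of 1 FPKM, so this group could not be extended. Of 6 further ones listed as cytoplasmic, 4 were expressed, and all 4 were at least 1.5-fold lower in WT polysomes, with a median of −2.11: MIR4435-2HG (−2.53), DANCR (−2.12), EPB41L4A-AS1 (−2.10) and OIP5-AS1 (−1.74). Among expressed lncRNAs 83.7% were that far lower, and among all genes 19.1%, so these counts are near what lncRNAs as a class show. MIR4435-2HG is the copy of CYTOR, so its value is not independent of the CYTOR value. Of 10 other microRNA host genes, 4 were expressed, and 3 of these were lower at 1.5-fold, again near the share of lncRNAs. They were MIR4435-2HG, which stands in both lists, MIR100HG (−2.04) and MIR210HG (−0.94), while MIR503HG was at −0.57, near MIR22HG at −0.72. As a reference, 4 of 5 abundant translated mRNAs were at least 1.5-fold higher in WT polysomes: PGK1 (2.05), ENO1 (1.63), LDHA (1.46) and GAPDH (0.72), with ACTB at 0.25, beside the 28.1% of all genes.

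The genes with the most similar profiles were sought among 7204 genes whose mean was 5 FPKM or more, by the Euclidean distance between log2 profiles over the 4 libraries, each centred on its own mean. The profile of HCG18 was nearest to those of TLE5 (distance 0.023) and FNDC4 (0.025), that of TUG1 to KCTD17 (0.026) and TATDN2 (0.032), and that of CYTOR to the antisense lncRNAs URB1-AS1 (0.059) and DLGAP1-AS1 (0.078). NORAD was nearest to MDM2 (0.071), the gene of the ubiquitin ligase of p53, and to PNRC2 (0.10). MALAT1 lay next to PIGX (0.076) and SRP9 (0.089), PVT1 next to SLC25A43 (0.085) and RARRES2 (0.094), NEAT1 next to SDHAF3 (0.14) and FAM122B (0.15), and MIR22HG, with the farthest neighbours, next to MEF2B (0.20) and FGFR1OP2 (0.27). Only CYTOR had lncRNAs as its nearest profiles, and the nearest profiles of the other members were those of mRNAs. Few of the genes compared were lncRNAs: among genes with a mean of 10 FPKM or more, 82 of 5379 were. Nearest profiles of mRNAs are therefore not read as particular to these members. With 4 libraries these distances describe the likeness of 4 values and no more.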

How the data were processed

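Poly(A)-selected RNA of the sub-polysome and polysome fractions was made into strand-directional libraries and sequenced on an Illumina NovaSeq6000. The authors deposited FPKM per gene, used here as they gave them. The submitters' processing notes name STAR 2.7, StringTie 2.1.5 and hg38, and the gene annotation is not given in the sources used here. Another 4 columns, whose headers name the same conditions with replicate number 1, belong to none of the listed samples, and they were left out, so no replicate check was made.

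Log2 ratios were computed after adding 0.1 to every FPKM. Genes whose mean was 1 FPKM or more formed the background, and calls were made at 1.5-fold without a test, since 1 library per condition was analysed. Counts are not given. In genes with a single transcript, the median of FPKM times length in kilobases within a preset window (0.03 to 0.05) was taken as 1 fragment. The window bounds the depth obtained. Counting errors rest on that depth, and the error between libraries is unknown. Sequences and positions are from hg38 and GENCODE 44, whose transcripts were checked to match the genome letter by letter. A check of length or motifs over all lncRNAs was void, since only 74.6% of the 405 matched a transcript.

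The members, gene lists and tests were chosen with earlier results of these data known. The text names the members, MIR4435-2HG, METTL3, cell line markers, up to 4 expressed genes per list with the highest mean (some are not reported here), and the 2 nearest profiles per member. FLRT2 and LNPEP were named after their site counts were seen. The calculation was tested on simulated data. Alternatives were other pseudocounts, scalings, thresholds and minimum means, members left out in turn, and CYTOR summed with its copy. Python 3.11.15, pandas 2.3.3, numpy 2.4.6, scipy 1.17.1 and matplotlib 3.10.9 were used.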

Additional observations from a re-analysis of the deposited data

Results flagged for a closer look

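For 5 of the 8 lncRNAs, the difference between K177Q and WT cells had opposite signs in the 2 fractions, with 1 library each, so the difference was not tested. The share of opposite signs over all genes or lncRNAs was not computed, so the count is not read as particular to these members. Over lncRNAs the medians were also opposite in sign, at 0.12 in the sub-polysome and −0.27 in the polysome fraction. Some values lay within counting error, such as PVT1 in the sub-polysome fraction (−0.06, counting SE 0.13) and HCG18 among polysomes (−0.17, 0.18). The polysome value minus the sub-polysome value was 0.57 for NORAD, 0.39 for PVT1 and 0.26 for TUG1, which were above 0 among polysomes and below 0 in the sub-polysome fraction. It was −0.30 for CYTOR and −0.32 for HCG18, which went the other way, although their sub-polysome values turned below 0 after rescaling to the same total.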

How the results depend on the processing

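Counts of members past the threshold, and the difference between nuclear-retained and cytoplasmic RNAs, were recomputed under each alternative, and 79 of 100 such values stayed within 1.5 times the count or within the 95% counting interval of the difference. Some of these could not change. All 8 members already had a mean of 1 FPKM or more, so dropping the minimum mean left every count as it was. Counts of higher members were 0 and could not fall at a stricter threshold or minimum mean. With a pseudocount of 1 FPKM, 0 members were lower in the ratio between genotypes (MIR22HG −0.32) and 1, NEAT1, was lower in the sub-polysome fraction (MALAT1 −0.39); MIR22HG was also no longer 1.5-fold lower in WT polysomes (−0.55). Rescaled to the same total (TPM), 0 members were lower (MIR22HG −0.35) and 3 were higher between genotypes (NORAD 0.86, PVT1 0.69, MALAT1 0.60). Under that scaling 2070 of 11143 genes and 81 of 419 lncRNAs were higher. With equal totals outside ribosomal protein genes 0 members were lower (MIR22HG −0.40) and 2 higher (NORAD 0.80, PVT1 0.62), beside 1505 of 10908 genes and 71 of 403 lncRNAs higher. Under both, MIR22HG joined the members lower in the sub-polysome fraction (−0.67 and −0.66). There 1098 of 11143 genes and 64 of 419 lncRNAs were lower under TPM, and 1018 of 10908 and 58 of 403 under the other scaling. These scalings moved the median of all genes to 0.29 and 0.22, so relative to it the values stay near those reported. At 2-fold, 0 members were lower in the ratio between genotypes and 0 in the sub-polysome fraction. With a minimum mean of 10 FPKM only NORAD and CYTOR remained, so 2 members were lower in polysomes in each genotype and 0 between genotypes in the ratio or in either fraction. With equal totals outside ribosomal protein genes, MALAT1 and TUG1 were also above 0 in K177Q cells (0.08 and 0.15), and the sub-polysome values of CYTOR and HCG18 were −0.07 and −0.05. The nuclear-retained minus cytoplasmic difference was 0.49 without MALAT1, 1.46 without NEAT1, 1.49 without NORAD and 0.47 without CYTOR in WT, and 0.63, 1.65, 2.08 and 0.20 in K177Q cells. No direction of a called value was reversed. Beyond what their construction shows (fewer genes, another scale or threshold), the cause was not tested. With 1 library analysed per condition, every difference between genotypes lacks a replicate check, and counts under about 100 fragments limit MIR22HG and PVT1. Replicates could not be paired, since the columns headed replicate 1 were left out and 1 library per condition was analysed.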
